A study of Mus musculus with 12 samples.

Results

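The regions described here are the 445 promoter regions that carried an H3K36ac peak in each of the 3 Sirt7-/- samples and in none of the 3 WT samples. They were chosen by the peak calls themselves: the peaks of the 6 ChIP samples were merged wherever they overlapped or touched, and a merged region was kept when a peak of every Sirt7-/- sample and no WT peak overlapped it by at least 1 bp and any part of it lay within 3000 bp of a gene start. The 6 lists merged into 4467 regions, of which 3871 lay within 3000 bp of a gene start, so the 445 were 11.5% of the promoter regions. Because the calls chose the regions, their number, fold and q are given as a description and without a test. The lists hold no read coverage, and a region without a peak may still carry the mark below the threshold of the caller.

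The study compared spermatogonia of WT mice and of mice lacking Sirt7 from conception, both on the 129S1/Sv background and taken at postnatal day 5 (Pnd 5). Spermatogonia were enriched from the testis by differential plating and not sorted, and 50000 cells per sample, each sample from a different mouse, were immunoprecipitated with an antibody against acetylated lysine 36 of histone H3 (H3K36ac). There were 3 WT and 3 Sirt7-/- ChIP samples, numbered 2, 3 and 4 in each genotype, each with an input library of its own. Broad peaks were called by the authors sample by sample, each against its input and without pooling. A spike-in was added to each sample. The authors applied no factor from it, since they found its counts to be alike between samples.

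H3K36ac is placed by histone acetyltransferases on nucleosomes of active promoters, mostly just inside the transcribed gene. The same lysine is methylated further along gene bodies, and a lysine cannot carry both marks at once. SIRT7 is an NAD+-dependent deacetylase of the sirtuin family, known for acting on chromatin and on the nucleolus, and H3K36ac is one of its reported substrates. In the testis of the newborn male, spermatogonia are the germ cells from which the spermatogenic line is founded.

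The promoters of the first regions serve as examples of how the peaks lay on the sequence, and not of the base composition of the set. For the 8 best-ranked regions with a sequence at the listed gene start, the 280 bases from 250 before to 30 after the start of the gene are printed from 5′ to 3′ (RefSeq, GRCm38.p6, the assembly behind mm10, from the C57BL/6J strain and not from the strain of these mice). Capitals mark the bases inside the peaks of all 3 Sirt7-/- samples. The windows are those of Brpf3 (chr17:28800876-28801155, plus strand), Sar1a (chr10:61680035-61680314, plus strand), Farsb (chr1:78488868-78489147, minus strand), Btg3 (chr16:78377152-78377431, minus strand), Srsf6 (chr2:162931258-162931537, plus strand), Pabpn1 (chr14:54893893-54894172, plus strand), Atp6v0c (chr17:24169649-24169928, minus strand), Nsun2 (chr13:69611766-69612045, plus strand).
Brpf3: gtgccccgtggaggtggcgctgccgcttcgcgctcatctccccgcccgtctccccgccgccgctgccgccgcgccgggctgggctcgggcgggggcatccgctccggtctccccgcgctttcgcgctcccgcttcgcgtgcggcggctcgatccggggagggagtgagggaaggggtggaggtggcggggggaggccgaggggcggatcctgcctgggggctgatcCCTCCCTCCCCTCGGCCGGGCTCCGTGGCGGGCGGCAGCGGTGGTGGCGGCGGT
Sar1a: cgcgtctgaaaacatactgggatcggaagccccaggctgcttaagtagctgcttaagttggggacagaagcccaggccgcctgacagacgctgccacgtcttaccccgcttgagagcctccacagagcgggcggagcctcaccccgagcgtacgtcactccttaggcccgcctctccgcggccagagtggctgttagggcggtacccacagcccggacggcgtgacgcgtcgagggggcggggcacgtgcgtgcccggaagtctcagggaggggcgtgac
Farsb: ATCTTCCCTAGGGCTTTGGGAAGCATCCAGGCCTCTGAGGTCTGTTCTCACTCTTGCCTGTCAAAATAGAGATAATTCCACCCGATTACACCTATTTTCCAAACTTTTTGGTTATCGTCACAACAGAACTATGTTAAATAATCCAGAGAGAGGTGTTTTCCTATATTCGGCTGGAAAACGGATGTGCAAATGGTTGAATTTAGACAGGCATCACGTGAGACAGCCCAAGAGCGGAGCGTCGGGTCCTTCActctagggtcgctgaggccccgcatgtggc
Btg3: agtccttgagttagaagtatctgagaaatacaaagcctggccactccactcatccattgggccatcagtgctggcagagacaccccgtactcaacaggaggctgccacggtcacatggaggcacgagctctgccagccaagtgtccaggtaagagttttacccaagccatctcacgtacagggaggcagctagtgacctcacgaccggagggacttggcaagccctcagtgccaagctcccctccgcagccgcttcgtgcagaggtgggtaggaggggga
Srsf6: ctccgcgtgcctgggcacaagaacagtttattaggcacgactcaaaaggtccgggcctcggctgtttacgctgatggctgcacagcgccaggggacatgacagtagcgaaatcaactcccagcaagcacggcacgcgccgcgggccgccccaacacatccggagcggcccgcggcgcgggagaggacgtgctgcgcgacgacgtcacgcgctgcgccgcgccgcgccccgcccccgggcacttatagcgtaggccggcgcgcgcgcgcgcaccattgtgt
Pabpn1: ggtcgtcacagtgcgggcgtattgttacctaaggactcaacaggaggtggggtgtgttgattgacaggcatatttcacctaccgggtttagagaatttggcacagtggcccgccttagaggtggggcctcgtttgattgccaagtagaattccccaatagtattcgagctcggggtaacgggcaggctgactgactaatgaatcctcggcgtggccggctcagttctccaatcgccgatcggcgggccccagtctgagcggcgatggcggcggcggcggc
Atp6v0c: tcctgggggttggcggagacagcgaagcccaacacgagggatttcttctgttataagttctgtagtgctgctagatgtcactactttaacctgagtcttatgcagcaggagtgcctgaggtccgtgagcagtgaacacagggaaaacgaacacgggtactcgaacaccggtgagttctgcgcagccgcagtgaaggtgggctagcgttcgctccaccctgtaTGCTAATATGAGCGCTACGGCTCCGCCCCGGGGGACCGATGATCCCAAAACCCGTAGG
Nsun2: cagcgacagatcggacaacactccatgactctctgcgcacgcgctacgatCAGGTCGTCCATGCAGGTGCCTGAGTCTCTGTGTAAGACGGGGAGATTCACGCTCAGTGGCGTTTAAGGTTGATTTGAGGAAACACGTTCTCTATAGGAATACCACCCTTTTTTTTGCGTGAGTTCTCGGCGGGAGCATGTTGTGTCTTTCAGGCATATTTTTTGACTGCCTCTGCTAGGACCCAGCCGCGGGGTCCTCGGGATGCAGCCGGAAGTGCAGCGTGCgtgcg
The shared peak covered 250 of the 280 bases at Farsb, 225 at Nsun2, 58 at Atp6v0c and 54 at Brpf3. At Sar1a, Btg3, Srsf6 and Pabpn1 it covered 0 of them, since the bases that the 3 peaks shared lay downstream, inside the gene. GC content ran from 47.9% at Farsb to 79.3% at Brpf3.

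The peak lists of the genotypes differed in length, and every count of regions given here rests on that. The Sirt7-/- lists held 2840, 2045 and 2591 peaks for replicates 2, 3 and 4, and the WT lists held 906, 64 and 294 for the replicates of the same numbers. Among the promoter regions, 1698 were called in 1 Sirt7-/- sample and no WT sample and 752 in 2 Sirt7-/- samples and no WT sample, against 97 in 1 WT sample and 2 in 2 WT samples without any Sirt7-/- peak. A promoter region with a peak in each WT sample and none in the Sirt7-/- samples was not found. A further 499 regions had a peak in each Sirt7-/- sample and in at least 1 WT sample, 369 of them in exactly 1, and these served as the nearest comparison. When every list was limited to its 64 best peaks, the length of the shortest, 1 promoter region met the rule, at Nup85, which is not among the 445, and 2 met it with the genotypes exchanged. No difference in the level of the mark can be read from the number 445 alone. At the deleted gene itself, none of the 6 samples had an H3K36ac peak within 3000 bp of the start, so the lists offer no check of the genotype.

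**Figure D1:**
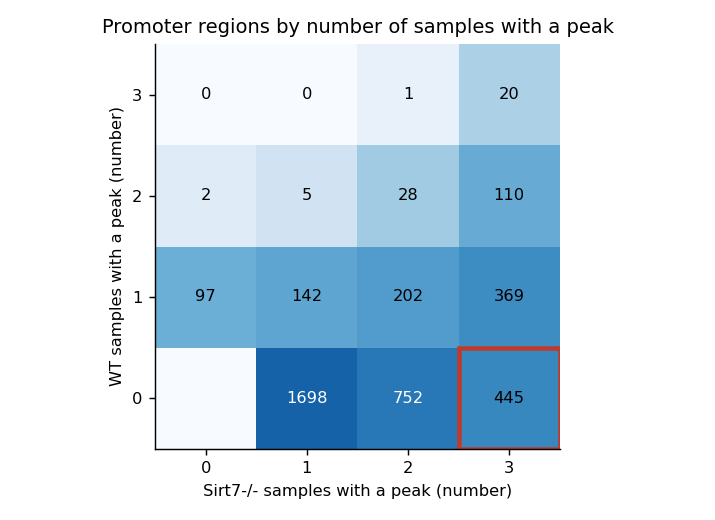
Number of promoter regions by the number of Sirt7-/- samples (horizontal axis) and of WT samples (vertical axis) with an overlapping peak. The 445 regions described are outlined in red, between 752 regions called in 2 Sirt7-/- samples and 369 called in all 3 and in 1 WT sample.

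Ordered by the mean rank of their peaks, the first regions included 3 promoters of chromatin factors. The first was at Brpf3, which encodes a scaffold subunit of the MYST histone acetyltransferase complexes, on chr17:28800531-28802163. Its fold over input was 6.30, 7.66 and 5.04 in Sirt7-/- replicates 2, 3 and 4, and its -log10 q was 7.25, 8.11 and 5.15. It stood at rank 29 of 2840, 14 of 2045 and 140 of 2591 in the 3 lists. Tbl1xr1, a subunit of the NCoR and SMRT corepressor complexes, had folds of 5.44, 7.55 and 6.62, lowest in replicate 2. Kat5, the catalytic subunit of the TIP60 acetyltransferase complex, had 5.28, 5.23 and 4.79, and its 717 bp region lay 1088 bp from the start of the gene and held the start of another transcript. All 3 genes thus had a peak of more than 4-fold over input in every Sirt7-/- sample and no WT peak.

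Secretion and translation were represented by single genes near the top. Sar1a, the small GTPase that starts the assembly of COPII vesicles, was second, with folds of 6.35, 6.04 and 5.96 and a region of 497 bp that began 30 bp from its start. Farsb, the beta subunit of phenylalanyl-tRNA synthetase, had folds of 4.64, 7.41 and 5.96. Nsun2, an RNA cytosine methyltransferase, shared its region with the divergent Srd5a1 and had folds of 5.27, 5.83 and 5.07. The order of the samples by fold was a different one at each of these 3 regions.

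RNA-binding proteins followed. Srsf6, a splicing factor rich in serine and arginine, had folds of 4.80, 5.42 and 7.40 and a -log10 q of 4.71, 4.36 and 9.99, so that it stood at rank 3 in replicate 4 and at rank 292 in replicate 3. Pabpn1, the nuclear poly(A)-binding protein, had folds of 7.10, 5.18 and 5.71, highest in replicate 2, and ranks of 5, 480 and 72. Ppig, a nuclear cyclophilin that binds splicing factors, had folds of 5.27, 5.86 and 5.44. The rank of Pabpn1 thus differed by more than 400 places between samples, although it was among the first 15 by mean rank.

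The other regions in the first 15 belonged to genes of varied function. Btg3, an antiproliferative protein of the BTG/Tob family, had folds of 5.15, 6.24 and 7.20. Bach2, a transcriptional repressor of the bZIP family, had 5.25, 5.86 and 4.92. Terf1, a protein that binds telomeric repeats, had 4.72, 6.37 and 4.73. Nup153, a nucleoporin of the nuclear basket, had 5.27, 5.22 and 6.22. Atp6v0c, the proteolipid of the vacuolar proton pump, had 4.38, 6.81 and 7.06, and Tpp2, a cytosolic peptidase and the last of the 15, had 5.98, 5.57 and 4.03. At place 5 of the order was a region near the start of the long non-coding RNA D730003I15Rik only, with folds of 5.72, 5.79 and 6.07.

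Over all 445 regions the peaks were of middling strength within their lists. The median fold over input was 4.18, 4.70 and 4.20 in Sirt7-/- replicates 2, 3 and 4, with a range of 3.15 to 7.10 in replicate 2, 3.31 to 7.74 in replicate 3 and 3.15 to 7.40 in replicate 4. The median -log10 q was 2.47, 2.58 and 2.59. The fold was highest in replicate 3 at 258 regions, in replicate 2 at 94 and in replicate 4 at 93. Over all peaks of the lists of replicates 2, 3 and 4 the median fold was 4.05, 4.68 and 4.07. The higher fold of replicate 3 was thus not particular to the 445 regions. In 192 regions all 3 peaks reached a -log10 q of 2, and in 84 the weakest peak was under 1.5. The -log10 p of all 3 peaks was at or above 5.99, the least that any peak of the shortest WT list had, in 136 regions. In all 3 lists, 6 regions stood among the first 10% of peaks, while 69 stood among the last 10% of at least 1 list.

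The regions that also had a WT peak stood higher in the same lists. The median region of the 445 stood at 40.0%, 50.7% and 40.9% of the way down the lists of replicates 2, 3 and 4, and the median of the 499 at 24.1%, 30.4% and 26.9%. The median -log10 q of the 499 was 3.20, 3.35 and 3.08. The quartiles of the 2 sets overlapped in every sample. Since the absence of a WT peak was part of the choice, this is a description of which regions the choice takes and was not tested.

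**Figure D2:**
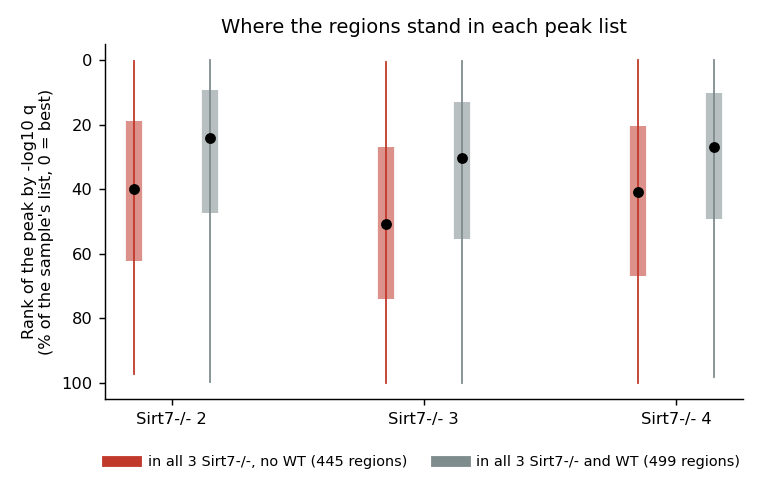
Rank of each region's peak in the list of each Sirt7-/- sample, as a percent of the list with 0 for the best peak, for the 445 regions without a WT peak (red) and the 499 with one (grey). Dots are medians, thick bars run from the first to the third quartile and thin lines from the lowest to the highest region; the medians of the 445 lie lower in the list in all 3 samples.

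The choice asks for peaks of all 3 samples in the same merged region, so it brings about their closeness, which is described here. The strengths of the peaks were only weakly related. In 425 of the 445 regions at least 1 base lay inside the peaks of all 3 samples, and in 20, among them Med25, Rhno1 with Foxm1, and Eif3j1, the peaks shared no base and were joined by the merge. The shared stretch had a median of 264 bp (quartiles 195 and 408), against 937 bp for the whole region. The midpoints of the 3 peaks lay within a median of 223 bp. Across regions, Spearman's rho of the fold was 0.17 between replicates 2 and 3, 0.12 between 2 and 4 and 0.14 between 3 and 4, and for the -log10 q it was 0.26, 0.22 and 0.22. These correlations are over the same 445 regions, which had to pass the caller in every sample, and they are given without a p.

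The peaks lay just downstream of the gene start. With the nearest protein-coding start as the origin, the share of regions under a peak was greatest at 300 bp in Sirt7-/- replicate 2, with 65.9% of 434 regions, at 250 bp in replicate 3, with 60.1%, and at 300 bp in replicate 4, with 63.1%. At the start itself the shares were 33.4%, 30.9% and 30.4%. The 499 regions with a WT peak had their greatest share at 200, 350 and 300 bp, with 68.3%, 65.8% and 68.9%. The midpoint of the region lay downstream of the start in 351 of the 445 (78.9%), against 80.9% of all promoter regions. In both sets a lower shoulder extended upstream of the start.

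**Figure D3:**
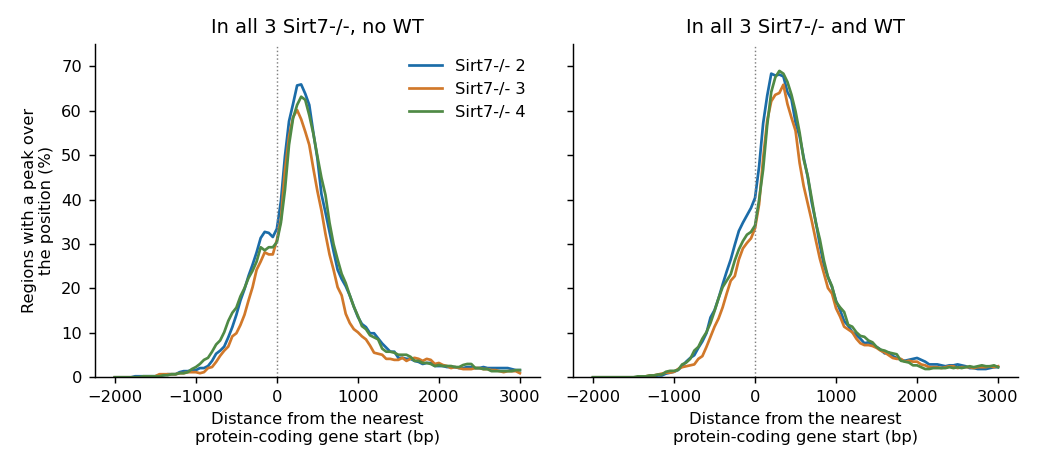
Percent of regions with a peak over each position, by distance from the nearest protein-coding gene start in the direction of transcription, in steps of 50 bp, for each Sirt7-/- sample. Left, the 434 regions without a WT peak that have such a start; right, the 483 with a WT peak. In both panels the greatest share lies 200 to 350 bp downstream of the start.

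The regions were wider than the average promoter region and more often held the start. The median width was 937 bp (quartiles 652 and 1211), against 990 bp in the 499 regions with a WT peak, 637 bp in the 752 regions called in 2 Sirt7-/- samples and 553 bp over all promoter regions. Width is not independent of the choice, which joins the peaks of 3 samples. The gene start lay inside 245 regions (55.1%), against 57.9% of the 499, 41.9% of the 752 and 37.1% of all promoter regions. A wider region is more likely to hold a start, so this share is not independent of the choice either. Of the 200 regions without a gene start inside, 48 held the start of another RefSeq transcript. The widest was at Nsd1, with 3354 bp on chr13:55209646-55212999 and peaks of 3254, 1183 and 1925 bp, and the narrowest was at Sugt1, with 282 bp.

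At the edge of the 3000 bp window, the choice depended on which start the gene table lists. The 2 regions farthest from a gene start were at Kifc2, 2907 bp away, and at Tcf25, 2821 bp away, the second of which held another transcript start of the table. Just outside the window lay a region 3041 bp from the start of Atad2b and one 3548 bp from that of Ppp1cc, both within 300 bp of another start of the same gene, at 92 and 240 bp. In all, 42 regions outside the window had the same pattern of calls, and 27 of them had another transcript start within 3000 bp.

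Almost all of the regions belonged to protein-coding genes. A protein-coding start lay within 3000 bp of 434 regions (97.5%, exact 95% interval 95.6 to 98.8), against 95.9% of all promoter regions, 96.8% of the 499 and 96.5% of the 752. A long non-coding RNA start lay near 67 regions (15.1%), against 17.5% of all promoter regions. Divergent pairs of starts were near 57 regions (12.8%), against 15.03%. In all, 619 genes had a start near a region, 517 of them protein-coding and 70 long non-coding. The region at the Mir17hg host gene and the microRNAs of its cluster had 7 starts near it, none of them protein-coding.

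The regions were spread over the genome. Every autosome had between 13 and 43 of them, with the most on chromosome 11, where they were 43 of 327 promoter regions (13.1%). Chromosome 17 had 29 of 179 (16.2%) and chromosome 6 had 13 of 200 (6.50%). The X chromosome had 1 of 25, at Zrsr2, a component of the minor spliceosome, and the Y chromosome had no promoter region. No pair of neighbouring regions lay within 10 kb. Within 100 kb of the deleted gene on chromosome 11 there were 3 regions, at Aspscr1, Arhgdia and Mcrip1. How many promoter regions in all lay in that stretch was not counted, so the 3 are not read as a cluster there. Their folds in replicates 2, 3 and 4 were 5.51, 6.08 and 3.81 at Aspscr1, 3.52, 5.13 and 3.42 at Arhgdia, and 3.29, 4.51 and 3.24 at Mcrip1. The fold was highest in replicate 3 at each, as was the median fold of that whole list.

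The genes near the regions were then grouped by function. Of 21468 protein-coding starts, 517 (2.41%) lay within 3000 bp of one of the regions, 4238 (19.7%) within 3000 bp of any promoter peak and 1099 (5.12%) of a WT peak. The gene lists below were written from general knowledge with earlier results of these data known, so their counts are a description. Of the genes with any peak, 12.2% had one of these regions, and a list whose genes mostly have peaks therefore has more of them.

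The list of histone acetylation and H3K36 methylation, which holds enzymes and other subunits of their complexes, had 12 of 70 genes near a region (17.1%), or 30.8% of the 39 of them with any peak. Brpf3, Tbl1xr1 and Kat5, described above, were the first 3 of them, and the acetyltransferases Kat7 and Crebbp were also among the 12. Kat7, an acetyltransferase of the BRPF complexes, had folds of 3.53, 4.96 and 4.21, and Crebbp, the acetyltransferase CBP, had 4.17, 5.03 and 3.55. On the methylation side, Setd2, which writes H3K36 trimethylation, had 6.91, 6.40 and 3.31, and ranked 9, 85 and 2533. Nsd1 and Nsd2, which write H3K36 dimethylation, had folds of 4.47, 4.63 and 4.79 and of 4.69, 4.33 and 5.10. Setd5, a SET domain protein, Mta3 of the NuRD complex, Rcor3 of the CoREST complex and the deacetylase Sirt6, with 3.69, 4.35 and 4.003, completed the 12. In the same list 12 of 70 genes had a WT peak.

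Genes of the SUMO and ubiquitin pathway had 13 of 114 near a region (11.4%), or 23.2% of the 56 with any peak. Ube2s, the enzyme that elongates ubiquitin chains for the anaphase-promoting complex, had folds of 3.35, 7.13 and 4.65, far higher in replicate 3 than in replicate 2. Usp32, a deubiquitinase, had 5.12, 4.36 and 4.58. Ube2n, which makes lysine-63 chains, had 4.40, 4.94 and 3.73. The SUMO ligase Pias2 was also among the 13, with the conjugating enzymes Ube2k, Ube2e3, Ube2v2, Ube2r2 and Ube2l3.

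Factors that process messenger RNA and make proteins were also above the background. Splicing and RNA-binding proteins had 13 of 174 (7.47%). Next to Srsf6, U2af1, which reads the 3′ splice site, had folds of 5.98, 4.72 and 5.04, and Hnrnph3 had 5.58, 4.97 and 4.32. Translation factors had 5 of 60 (8.33%), led by Eif3a, a core subunit of initiation factor 3, with 4.48, 6.84 and 4.61. Eif5a had 3.31, 4.45 and 4.92. Eif3j1, with 4.19, 4.54 and 4.30, was a region without a shared base. Cytosolic ribosomal proteins had 6 of 86 (6.98%), among them Rps19, Rps7, Rps13 and Rps25 of the small subunit. Rps19 had folds of 3.78, 4.91 and 6.17 and Rps7 had 4.95, 5.56 and 4.18. As a share of genes with any peak these 3 lists stood at 13.7%, 12.8% and 11.8%, near the 12.2% of all genes.

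The respiratory chain had 5 of 95 genes (5.26%), with Uqcrq, Cox6c and Atp5pb first. Cox6c had 4.52, 4.19 and 4.58, Atp5pb had 3.86, 5.42 and 3.87, and the region of Uqcrq, shared with Gdf9, had 4.96, 4.79 and 3.55. Aminoacyl-tRNA synthetases had 2 of 38, Farsb and Ears2, the second with 4.41, 4.11 and 3.65. The list of cell cycle genes had 6 of 108 (5.56%). The first of them, the origin recognition subunit Orc6, shared a region with Vps35 that had 5.42, 4.43 and 5.09. Anapc7 and Cdc27, both subunits of the anaphase-promoting complex, had 3.49, 6.02 and 4.47 and 4.13, 4.66 and 4.56. Cdk19 and Cdc73, also among the 6, act in transcription, and Cdc73 is counted again with polymerase II below. The share of this list is therefore not one of cell cycle genes alone. Genes named Zfp, most of them zinc finger proteins, had 13 of 397 (3.27%), with Zfp36l1, Zfp605 and Zfp706 first. The region of Zfp36l1, shared with Gm52006, had 4.30, 4.85 and 4.89, that of Zfp605, shared with Gtpbp6, had 4.24, 4.57 and 4.70, and that of Zfp706 had 4.32, 4.88 and 4.45. As a share of genes with any peak, the respiratory chain stood at 15.6%, the synthetases at 12.5%, the cell cycle list at 14.0% and the Zfp genes at 12.9%, beside the 12.2% of all genes.

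RNA polymerase II, Mediator and the general factors had 3 of 94 (3.19%). Taf9, a subunit of TFIID, shared a region with Rad17 and Ak6 that had folds of 6.18, 5.96 and 3.65. Med25 of Mediator had 4.05, 6.42 and 3.84, and Cdc73 of the PAF1 complex had 6.20, 3.99 and 4.102. DNA damage response and repair had 2 of 85 (2.35%), Usp1 with 3.38, 4.94 and 4.31 and Fancm, whose region is shared with Fkbp3, with 5.68, 4.07 and 3.53. The proteasome had 1 of 49, Psmd11, with 4.63, 6.87 and 4.36, and the mitochondrial ribosome 1 of 78, Mrps6, in a region shared with Slc5a3 that had 3.55, 5.20 and 3.71. The shares of these 4 lists lay between 1.28% and 3.19%, beside the background of 2.41%. As a share of genes with any peak they were 6.67% for polymerase II, Mediator and the general factors, 7.14% for repair, 4.76% for the proteasome and 3.45% for the mitochondrial ribosome, all under the 12.2% of all genes. The counts were 3 of 45, 2 of 28, 1 of 21 and 1 of 29. Counts this small can fall under that share without the lists standing apart.

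The lists of germ cell identity, meiotic and developmental genes had no such region, beside 2.41% of all protein-coding genes and 12.2% of those with any peak. Of 20 germ cell markers 0 had one, and 7 had a promoter peak in some sample: Dazl, Dmrt1, Etv5, Foxo1, Gfra1, Uchl1 and Zbtb16. Dmrt1, a transcription factor of germ and Sertoli cells, had a peak in Sirt7-/- replicates 2 and 4 and in WT replicate 2, and Foxo1, a factor of spermatogonial maintenance, in Sirt7-/- replicates 2 and 3 alone. Ddx4, Kit, Stra8 and Nanos2 had no peak in any sample. Of 22 markers of testicular somatic cells 0 had one, and Inha and Sox9, both known from Sertoli cells, had peaks in 2 and 1 Sirt7-/- samples. The counts were 0 of 39 for meiosis, 0 of 75 for histone genes, 0 of 154 for developmental patterning and 0 of 1295 for olfactory and vomeronasal receptors, and among these lists a peak in any sample was found at 1, 4, 2 and 0 genes. At the background shares, lists of 20, 22 or 39 genes, or 7 genes with a peak, can hold 0 without standing apart. A list with few peaks at all offers few chances for a region of this kind, and peaks give no measure of which cells the preparation held.

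**Figure D4:**
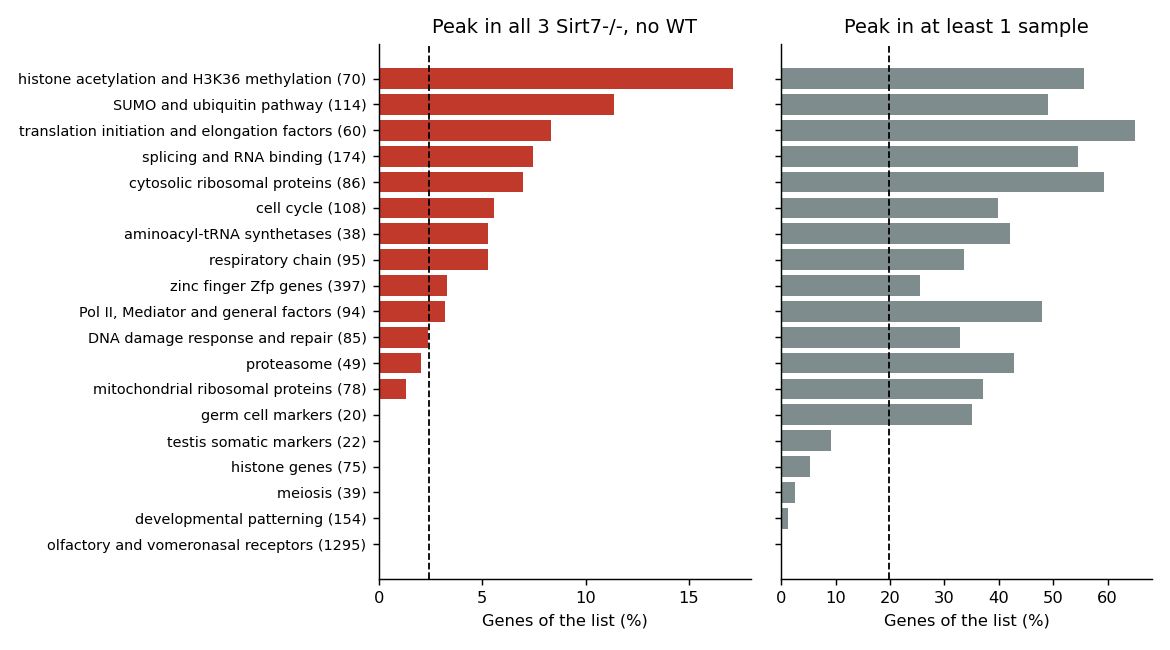
Percent of the genes of each list, with the number of genes in brackets, whose start lies within 3000 bp of one of the 445 regions (left) or of a promoter peak in at least 1 sample (right). Dashed lines mark all protein-coding genes, 2.41% and 19.7%; histone acetylation and H3K36 methylation has the longest bar on the left, at 17.1%, and translation factors on the right, at 65.0%.

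The promoter sequences of the set were rich in GC and CpG. A sequence was at hand for 413 of the 517 protein-coding genes (79.9%), under the 80% asked of such a description, so over the whole set it is void. Off chromosome 18, which was left out of all sequence work, it was 413 of 496 (83.3%), and the values that follow are for these. The median GC content of the 300 bases around the start was 65.7% (exact 95% interval of the median 65.0 to 67.0), against 66.7% near the 499 regions with a WT peak, 64.0% near all promoter regions and 56.3% over 17492 protein-coding promoters. The ratio of observed to expected CpG had medians of 0.87, 0.90, 0.85 and 0.58. A GC content under 50% was found in 7.02% of the set and 30.2% of all promoters. The intervals of the set and of the 499 overlapped.

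Short motifs were counted on both strands of the same 300 bases. GGGGCGGGG, a GC box of the SP and KLF factors, was in 114 of the 413 promoters (27.6%), against 25.4% near all promoter regions and 15.5% of all promoters. CCGGAAG, the core of the ETS motif, was in 86 (20.8%), against 20.9% and 11.9%. CACGTG, an E-box, was in 59 (14.3%), against 11.6% and 7.91%. GCGCATGC of NRF1 was in 6.54%, against 6.82% and 3.61%, AAGATGGC of YY1 in 6.05%, against 6.99% and 3.21%, and TCTCGCGA in 6.05%, against 5.00% and 1.53%. TATAAA was in 6.54%, against 6.01% and 13.3%. AGCCAAT of NFY was in 7.02%, against 9.79% and 9.65%, TGACGTCA, the cyclic AMP response element, in 2.18%, against 4.36% and 2.33%, and ACTACAAT in 0.24%, against 0.75% and 0.87%. Most of these shares lay closer to those of all promoter regions with a peak than to those of all promoters. In the sequences printed above, the ETS core was found at Sar1a and Nsun2, the GC box at Sar1a and Srsf6 and the E-box at Sar1a and Farsb. A match of letters does not show that a factor binds.

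Calls were also read in samples that took no part in the choice. For each replicate number the promoter regions were chosen again, by the same rule, from the other 2 Sirt7-/- and the other 2 WT lists, and the share with a peak was read in both lists left out. With replicate 2 left out, 951 regions were chosen and 77.6% of them had a peak in Sirt7-/- replicate 2 (exact 95% interval 74.8 to 80.2), against 36.1% (33.0 to 39.2) in WT replicate 2. With replicate 3 left out, 803 were chosen, of which 55.5% (52.0 to 59.0) had a peak in the Sirt7-/- sample and 1.12% (0.51 to 2.12) in the WT sample. With replicate 4 left out, 729 were chosen, with 68.2% (64.7 to 71.5) and 8.92% (6.95 to 11.2). The Sirt7-/- share was the higher in 3 of 3 cases. This was to be foreseen from the longer Sirt7-/- lists, and the order was the same over all promoter regions.

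The same shares over all promoter regions of the 4 lists, chosen or not, give the background. They were 57.8% in Sirt7-/- and 23.4% in WT replicate 2, 43.0% and 1.64% in replicate 3, and 50.9% and 7.52% in replicate 4. The mean share of the chosen regions was 67.1% ± 11.1 (SD, n = 3) in the Sirt7-/- samples and 15.4% ± 18.3 (SD, n = 3) in the WT samples, a difference of 51.7 percentage points (two-sided exact permutation test, p = 0.1, which is the least possible with 3 samples a group). Over all promoter regions the means were 50.6% and 10.8%, a difference of 39.7 points. The Sirt7-/- lists were the longer ones, so a higher Sirt7-/- share was to be foreseen for any promoter regions. The permutation kept the regions as chosen by genotype, and each list also took part in the choice for the other replicate numbers. The 6 shares are thus not independent, and the p describes their order only and is no test of the chosen regions. The share of the chosen regions lay above the background in all 3 Sirt7-/- samples and in WT replicate 2. It lay near the background in WT replicates 3 and 4. The background holds the chosen regions and also those with a peak in 1 list only. Regions required in 2 Sirt7-/- lists were therefore bound to recur more often in the Sirt7-/- sample left out. The intervals count regions, which are not replicates of a genotype, and serve as no test. Regions called in both of the other Sirt7-/- lists and in at least 1 of the other WT lists had a peak in 95.6%, 83.6% and 85.3% of cases in the Sirt7-/- sample left out and in 63.7%, 6.50% and 24.2% in the WT sample, above the chosen regions in all 6. Of the regions called in Sirt7-/- replicates 3 and 4 and without a peak in both shorter WT lists, 36.1% thus had one in the longest WT list. With the same number of 64 best peaks in every list, the difference was 8.33 points (23.4% against 15.1%, exact permutation test, p = 0.7).

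**Figure D5:**
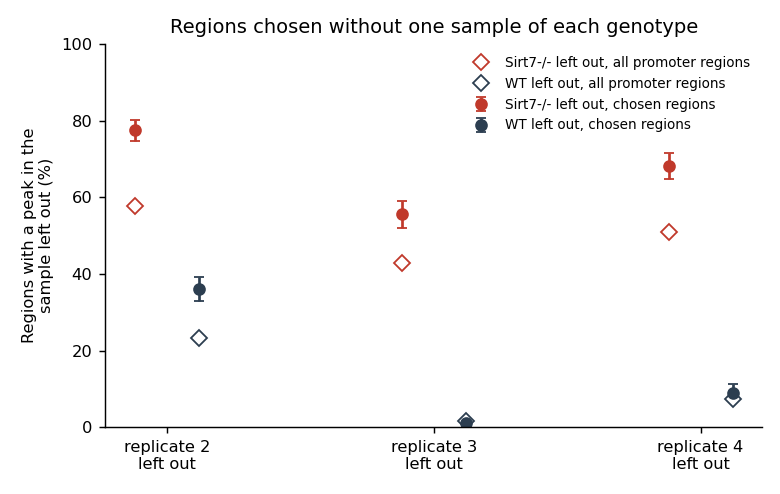
Percent of promoter regions with a peak in the sample left out, by replicate number, for regions chosen from the other 4 samples as called in both Sirt7-/- and no WT lists (filled dots, with exact 95% intervals that cover counting error over regions only) and for all promoter regions of those 4 samples (open diamonds). The filled Sirt7-/- dots lie at 77.6%, 55.5% and 68.2%, above the WT dots at 36.1%, 1.12% and 8.92%. The open diamonds have the same order, and the Sirt7-/- lists were the longer ones.

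The number of regions changed when single samples were left out. A rule that asks about fewer lists is looser, so a larger number was to be foreseen. Without WT replicate 2, which held the longest WT list, 748 regions met the rule, 303 of them not among the 445. Without Sirt7-/- replicate 3, the shortest Sirt7-/- list, there were 794. WT replicate 4 and Sirt7-/- replicate 3 had the fewest reads of their genotype before duplicates were removed, while the shortest list of all was that of WT replicate 3. The part of depth in these counts was not tested.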

How the data were processed

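H3K36ac ChIP-seq was analysed in 3 WT and 3 Sirt7-/- samples, grouped by the sample labels. Per the submitters' notes, adapters were removed (Trim Galore 0.6.6), alignment was to mm10 (Bowtie2 2.4.4.1), unique and non-duplicated reads were kept, and MACS2 2.2.5 called broad peaks at a cutoff of 0.1 for each ChIP over its own input, so the 6 inputs entered through the calls. Each deposited list holds peak positions, a score that restates the -log10 q (not used), the fold over input (a ratio computed by the authors' peak caller) and the -log10 p and -log10 q, as deposited by the authors. The fold and q of a peak belong to its own list. How many reads remained after filtering is unknown, as is therefore the precision of any one call, and intervals of shares cover counting error only.

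The members and gene lists were chosen with earlier results of these data known. Gene starts came from the RefSeq table of GRCm38.p6, with 1 start per gene. Strand came from the RefSeq promoter table or, by symbol and chromosome, from GENCODE vM39, for 45274 of 49997 genes. Genes are named by the best mean rank of -log10 q (the first 15 with a protein-coding start and the first 3 of each list), by width, number of starts and distance from a start, and by lying within 100 kb of Sirt7, and some genes that this rule names are not reported here. Kat7, Crebbp, Setd2, Nsd2, Sirt6 and others named as members of a list were named after their values were seen. Regions of each class were compared as counts, and the shares in the samples left out by an exact permutation test. Alternatives were a -log10 q of at least 2, a peak width of at least 500 bp, a 1000 bp window, merging across 500 bp, autosomes only, 50% coverage, a distance of 1000 bp from WT peaks, protein-coding starts only, lists of equal length, a common -log10 p, a replicate block, and each replicate left out. Other transcript starts and a shared base were added after seeing the data. Computations in Python 3.11.15 (SciPy 1.17.1, pandas 2.3.3, NumPy 2.4.6, matplotlib 3.10.9) were tested on simulated peak lists.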

Additional observations from a re-analysis of the deposited data

How the results depend on the processing

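The 445 regions depended most on how peaks were admitted. Their number was 201 with peaks of at least 500 bp, 178 where each Sirt7-/- sample had to cover 50% of the region, 173 with a common -log10 p minimum and 1 with lists of equal length; of the 201 and the 173, 120 and 136 were among the 445. A minimum -log10 q of 2 left 305, of which 192 were among the 445, and the share with a protein-coding start was 99.0%. With each replicate left out in turn the number ran from 452 to 794 and the share with a protein-coding start from 96.8% to 97.7%. The median GC content ran from 64.7% to 66.3%, and the difference in the samples left out from 31.8 to 64.0 points. Part of these regions were chosen from only 1 list of a genotype, which is a looser rule. A positive difference was to be foreseen from the longer Sirt7-/- lists. With lists of equal length it was 8.33 points (exact permutation test, p = 0.7). Peaks of at least 500 bp gave a median GC of 67.3%. The other settings gave between 422 and 472 regions. With the number as a replicate block the difference was the same 51.7 points (exact sign-flip test, p = 0.25, the least that 3 pairs allow); the labels do not say that the numbers pair the mice, and 3 values a group are too few to check it. Depth after filtering is unknown, and a q near the threshold can fall on either side of it in a repeat.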
